A study of Catharanthus roseus with 3 samples.

Results

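Anthranilate synthase alpha (ASA, transcript Cr_TC39398) and tryptophan decarboxylase (TDC, transcript Cr_TC33880) are the indole-branch enzymes followed here through root, leaf and flower of *Catharanthus roseus*. They are 2 of the 59220 transcripts listed for each tissue and were picked by identifier. The gene names come from the annotation of the assembled transcripts. The samples were root, leaf and flower of mature plants of the variety Prabal, grown in the field and given no treatment in the labels. Each tissue was sequenced as 1 library from total RNA, so the series holds 3 libraries, no value below has a replicate error, and no p-value is given. Neither the number of plants behind a library nor the age of the plants is stated in the sources used here.

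Both enzymes lie on the route that feeds the indole part of the terpenoid indole alkaloids (TIAs). Anthranilate synthase turns chorismate, the end of the shikimate pathway, into anthranilate, the first committed step towards tryptophan; the alpha subunit carries the catalytic site and is inhibited by tryptophan in plants. TDC then removes carbon dioxide from tryptophan to give tryptamine, which strictosidine synthase joins to secologanin, the iridoid part. Tryptophan from the ASA step also goes into protein and other indole compounds, whereas tryptamine in this plant is known mainly as the alkaloid precursor.

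The values were taken as RPKM, uniquely mapped reads divided by transcript length and by library size, although their column is headed as a base mean. Ratios and ranks between transcripts rest on that reading, since only values divided by length can be set side by side. All libraries had close totals, with a summed RPKM between 452743 and 471970, and between 44675 and 48814 transcripts above 0. Reads behind a single value were not given, so the depth of each value is unknown and no counting interval is attached; the smallest value above 0 was 0.01 RPKM in each library. The leaf and root labels were set against enzymes known for one side of the plant. T16H, D4H and DAT, enzymes of vindoline synthesis that is known from aerial tissue, had 0.04, 2.39 and 0.37 RPKM in root, against 7.01, 63.2 and 6.85 RPKM in leaf. T19H, the tabersonine 19-hydroxylase known from roots, had 8.96 RPKM in root against 0.01 RPKM in leaf. These values lie on the side the labels give, and no marker was at hand to check flower.

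TDC was highest in root as deposited. Leaf is highest if the libraries are scaled to equal actin, a transcript at 1.17 RPKM in leaf against 70.7 RPKM in root. That scaling raises every leaf value against root by the same factor. TDC had 191 RPKM in root, 14.5 RPKM in leaf and 2.29 RPKM in flower. Root thus held 91.9% of the sum over the tissues, leaf 6.97% and flower 1.10%. By rank, TDC stood at 315 of 59220 in root, at 7487 in leaf and at 18846 in flower. It was therefore in the top 0.532% of listed transcripts in root, the top 12.6% in leaf and the top 31.8% in flower. In bulk tissue, fewer cells making a transcript and less of it per cell cannot be told apart, and this holds for all values below.

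ASA followed the same order with a shallower slope. It had 73.2 RPKM in root, 31.2 RPKM in leaf and 9.52 RPKM in flower, or 64.2%, 27.4% and 8.36% of its sum over the tissues. ASA ranked 1149 in root, 3292 in leaf and 9964 in flower. In flower it thus stood in the top 16.8%, above TDC, and in root in the top 1.94%, below TDC. Over the 13867 transcripts that reached 10 RPKM in some tissue, the median root share was 27.5%. A root share as large as that of TDC was found for 3.08% of them, and one as large as that of ASA for 12.4%.

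**Figure D1:**
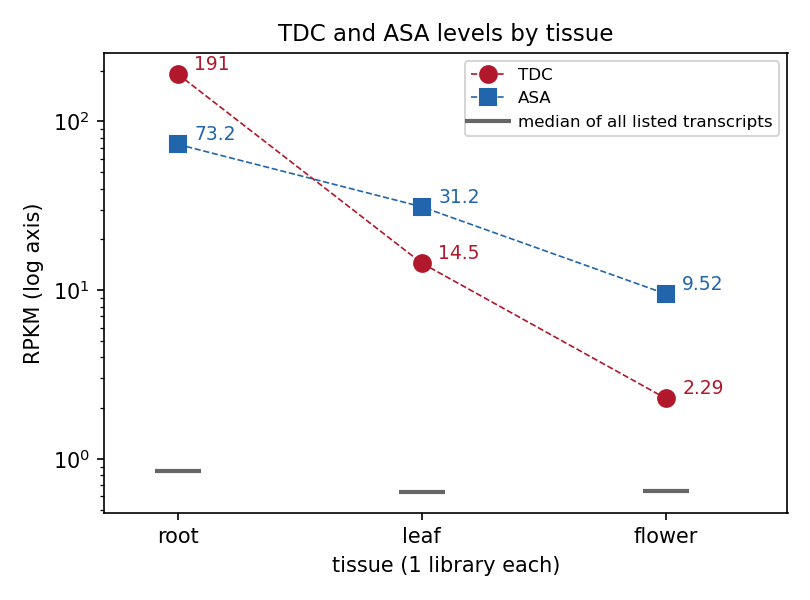
RPKM of TDC (circles) and ASA (squares) on a log axis in root, leaf and flower, 1 library each; dashed lines only join the values of a transcript, and grey bars mark the median of all listed transcripts. TDC at 191 RPKM lies above ASA at 73.2 RPKM in root and below it in leaf and flower; both are highest in root as deposited, but highest in leaf if the libraries are scaled to equal actin.

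The levels of the pair changed order between root and the other tissues. TDC was 2.61 times ASA in root, 0.464 times ASA in leaf and 0.241 times ASA in flower. The TDC to ASA ratio in root was 5.63 times that in leaf and 10.9 times that in flower, while leaf and flower differed 1.93-fold. These ratios are formed within a library, so no scaling between libraries can alter them. With a pseudocount of 10 added to both values the ratios were 2.42 in root, 0.594 in leaf and 0.63 in flower. TDC was then still above ASA in root alone, but the order of leaf and flower turned round, and root exceeded leaf 4.07-fold and flower 3.84-fold.

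Root against leaf sets the 2 tissues known for alkaloid production against each other. Differences were taken as log2 ratios of (RPKM + 1), which understate the change of low values, and a transcript counted as differing at 2-fold or more with the larger value at least 10 RPKM. By this rule of size, TDC was higher in root, with 191 RPKM in root against 14.5 RPKM in leaf, a ratio of 13.2 and a log2 ratio of 3.63. ASA was higher too, with 73.2 RPKM in root against 31.2 RPKM in leaf, a ratio of 2.34 and a log2 ratio of 1.20. Of 12517 transcripts compared, 24.8% were called higher in root and 54.5% in either direction, and the median log2 ratio over all was -0.26. The ASA difference is thus of a common size, equalled or passed by 22.5% of those compared, whereas that of TDC was equalled or passed by 6.30%. Both directions turn round when the libraries are scaled to equal actin, the control transcript of the study's RT-PCR. The log2 ratios are then -2.17 for TDC and -4.61 for ASA. Before the pseudocount, that scaling moves every transcript compared by the same -5.92. Actin (Cr_TC35401) had 70.7 RPKM in root, 1.17 RPKM in leaf and 55.1 RPKM in flower. The RT-PCR, run on biological replicates of each tissue, covered TDC but not ASA. For all genes selected, the paper reports RT-PCR patterns similar to those of its RNA-seq. Its RT-PCR values for TDC are not given in its text.

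Root against flower gave the widest gap for both enzymes as deposited, while with equal actin leaf against flower was the widest, at log2 ratios of 6.93 for TDC and 6.84 for ASA, against 4.76 and 2.23 in root against flower. TDC had 191 RPKM in root against 2.29 RPKM in flower, a ratio of 83.5 and a log2 ratio of 5.87. Among the 11639 transcripts compared, 20.8% were called higher in root, 44.4% were called in either direction, and 25 had a larger log2 ratio than TDC. For ASA the values were 73.2 RPKM in root against 9.52 RPKM in flower, a ratio of 7.69 and a log2 ratio of 2.82, which 6.85% of the transcripts compared equalled or passed. The median log2 ratio over all compared was -0.18.

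Leaf was also above flower for both. TDC had 14.5 RPKM in leaf against 2.29 RPKM in flower, a ratio of 6.33 and a log2 ratio of 2.24. ASA had 31.2 RPKM in leaf against 9.52 RPKM in flower, a ratio of 3.28 and a log2 ratio of 1.62. Here 21.5% of 12310 transcripts were called higher in leaf and 42.4% in either direction, and the log2 ratio was equalled or passed by 7.84% of them for TDC and by 13.3% for ASA. With a pseudocount of 10, TDC stood at 0.9953 and just missed the 2-fold line, while ASA stayed past it. At 4-fold, TDC passed in all 3 comparisons and ASA in root against flower alone, beside backgrounds of 15.9% higher in root than leaf, 11.5% higher in root than flower and 9.79% higher in leaf than flower. With a pseudocount of 10, TDC did not pass 4-fold in leaf against flower. The comparisons with flower share 1 flower library, so a deviation of that library would enter both.

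**Figure D2:**
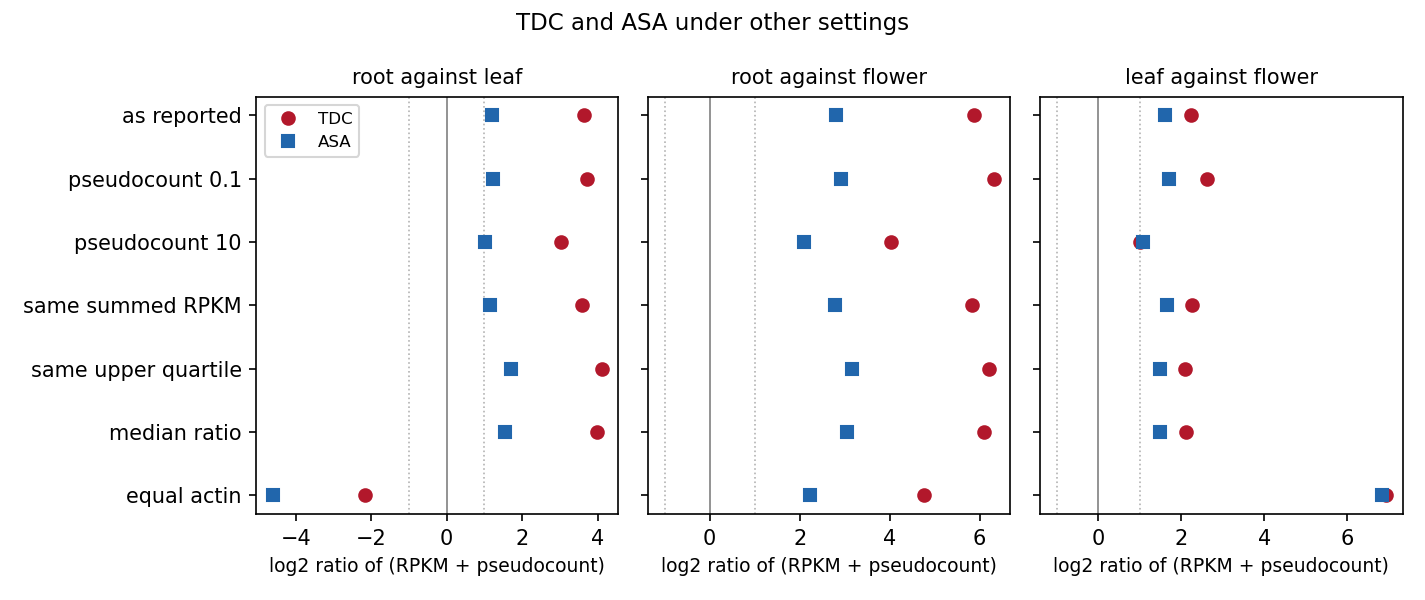
Log2 ratio of (RPKM + pseudocount) for TDC (circles) and ASA (squares) in root against leaf, root against flower and leaf against flower, as reported and under 6 other settings; dotted lines mark 2-fold. Values stay on the right of 0 in all panels apart from root against leaf with equal actin, where TDC lies at -2.17 and ASA at -4.61.

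A stepwise order of flower below leaf below root, with every step at least 2-fold, was an uncommon pattern. It was met by 123 of the 13867 transcripts that reached 10 RPKM in some tissue (0.887%), whereas the bare order of flower below leaf below root, at any size, was met by 9.48%. TDC and ASA were both among the 123. The pattern was modelled on the order of these enzymes with earlier results known, so their own place in it is no test. The only others among the 17 further named pathway transcripts were SLS and STR2, of which STR2 lay at the line in leaf against flower (log2 ratio 1.01). Within the 123, TDC had the third steepest difference of root over flower (rank 3) and rank 5 for root over leaf, while ASA ranked 91 and 108. For leaf over flower TDC ranked 13 and ASA 42, where the ASA log2 ratio of 1.62 was above the median of 1.42. With steps of at least 4-fold, 7 transcripts remained in the count, of which TDC and SLS were named pathway members and ASA was not one. With a pseudocount of 10, TDC left the pattern, as its leaf to flower step fell just short, and with equal actin both left it.

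The other pathway transcripts showed how far the pattern of the pair is shared. The list holds 17 transcripts that carry a gene name in the sources used here. In root against leaf, 6 of the 17 were at least 2-fold higher and 10 at least 2-fold lower, with no minimum value asked, and their median log2 ratio was -1.47. In root against flower 9 were higher and 7 lower (median 1.48), and in leaf against flower 7 were higher and 3 lower (median 0.94). With the larger value at least 10 RPKM, the counts in root against leaf were 5 higher and 8 lower of 14, beside a background of 24.8% and 29.8%. By the same rule 6 were higher and 6 lower of 12 in root against flower (background 20.8% and 23.6%), and 7 higher and 3 lower of 14 in leaf against flower (21.5% and 20.9%). The order of root above leaf above flower, at any size, was found for 4 of the 17 (23.5%), with no minimum value asked. Of all transcripts that reached 10 RPKM in some tissue, 9.48% had it. Of the 17, T19H and DAT did not reach that minimum in any tissue. T19H, one of the 4, has the order through 0.01 RPKM in leaf against a value listed at 0 in flower. With equal actin, all 19 named transcripts apart from T19H stood below 0 in root against leaf, and all 19 above 0 in leaf against flower. That scaling moves every transcript of the table by -5.92 and 5.56 in these comparisons, before the pseudocount. The sides are therefore no trait of the pathway, and the share of all transcripts on them was not counted.

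The iridoid branch, which builds secologanin for the same coupling step, was compared first. All 6 of its transcripts, counting the P450 reductase CPR, passed 2-fold towards root in root against flower, as TDC and ASA did. G10H and IS stayed under 10 RPKM in both tissues. By the rule with the minimum this is 4 of 4, beside a background of 20.8%. Of these 4, LAMT reached the minimum through root alone, with 1.2 RPKM in flower, so its direction was fixed by the minimum. In root against leaf the branch divided. LAMT, SLS, GPPS and CPR were higher in root, with log2 ratios of 3.90, 2.70, 3.83 and 3.19, but lower with equal actin, at -1.60, -3.19, -1.97 and -2.65. G10H and IS, which act between geraniol and the iridoid ring, were lower in root, at -2.01 and -2.73, on the other side from TDC and ASA. Of the 6 enzymes acting on tabersonine and its products, T19H was higher in root than leaf and the other 5 lower, each past 2-fold, with no minimum value asked. T19H, T16H and DAT stayed under 10 RPKM in both tissues. By the rule with the minimum 3 of 3 were lower in root, beside a background of 29.8%. These 3 (16OMT, NMT and D4H) had 3.44, 6.29 and 2.39 RPKM in root and reached the minimum through leaf alone. Their direction was therefore fixed by the minimum, and the count lends no weight to a branch low in root. HDR of the methylerythritol phosphate pathway, which supplies the terpenoid precursors, had 73.9 RPKM in root, close to ASA, but 206 RPKM in leaf and 166 RPKM in flower. PRX1, the peroxidase of bisindole formation, stood at the other end, with 30.8 RPKM in root, 46.1 RPKM in leaf and 270.2 RPKM in flower.

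**Figure D3:**
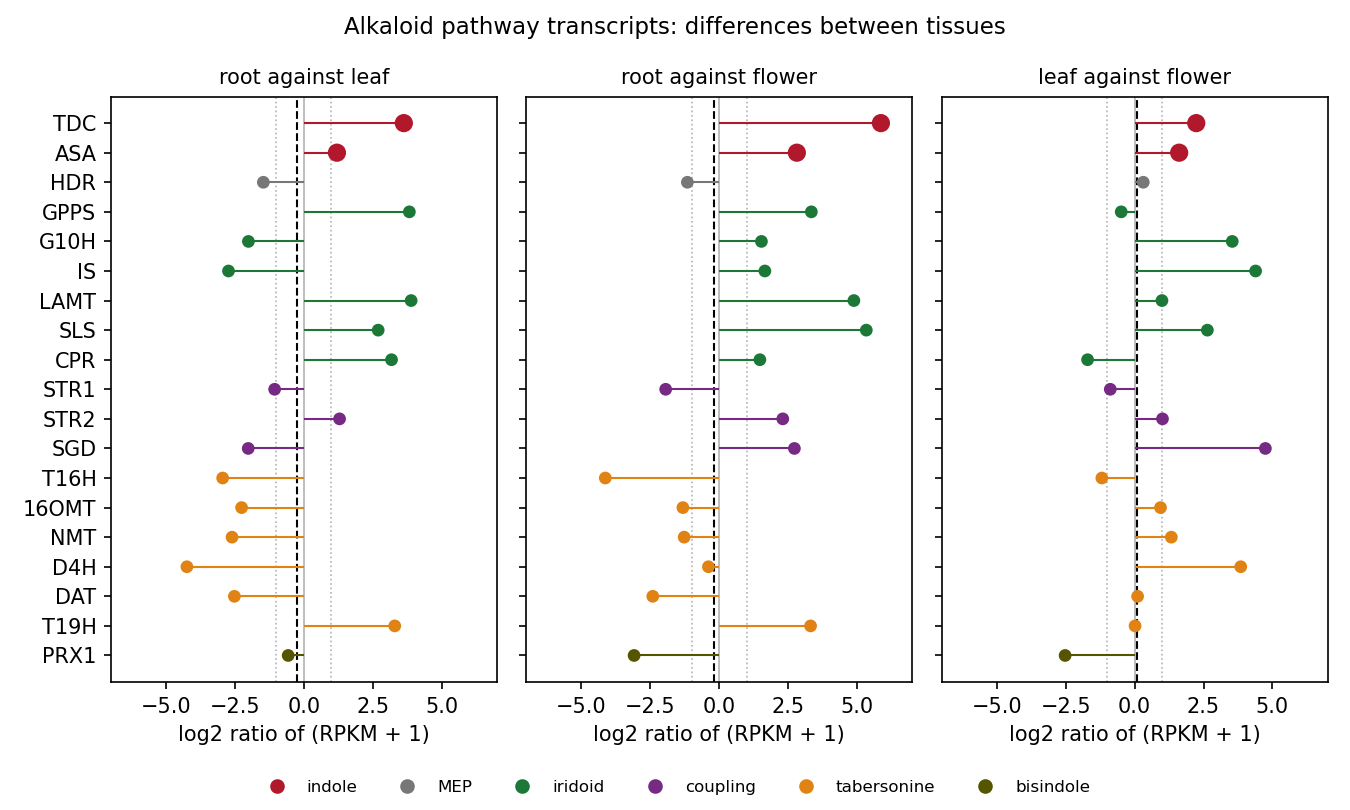
Log2 ratio of (RPKM + 1) for TDC, ASA and 17 other named pathway transcripts in root against leaf, root against flower and leaf against flower, coloured by branch; dotted lines mark 2-fold and the dashed line the median of all transcripts compared. TDC lies at 5.87 in root against flower, beside SLS at 5.34, and root against leaf divides the iridoid branch into 4 higher and 2 lower; with equal actin the root against leaf values of TDC, ASA and these 4 turn below 0.

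Likeness was measured as the distance between log2(RPKM + 1) profiles centred on their own mean, over 3 tissues, which is a description and no evidence of shared control. SLS, secologanin synthase, was nearest to TDC at a distance of 0.66, followed by LAMT, which methylates loganate, at 0.93. ASA lay at 2.28 from TDC, and 4 of the 17 lay closer to TDC than ASA did. The nearest to ASA was STR2, a strictosidine synthase, at 0.46, and 5 of the 17 were closer to ASA than TDC was. The indole enzymes were therefore each nearer in pattern to a transcript of another step than to one another. Both counts include T19H, at 0.01 RPKM in leaf and 0 in flower, so its distances rest on the pseudocount of 1. No other pseudocount was tried for the distances. Over the whole table and with the level counted too, Cr_TC35678 was nearest to TDC, with 124.7 RPKM in root, 13.2 RPKM in leaf and 2.09 RPKM in flower, and next came Cr_TC58692. For ASA it was Cr_TC58674, with 77.8 RPKM in root, 28.4 RPKM in leaf and 11.1 RPKM in flower, and next Cr_TC05520. The files pair no gene name with these 4 identifiers.

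Tryptamine and secologanin meet at strictosidine synthase, so the balance of TDC to SLS within each library was compared. SLS had 577 RPKM in root, 87.9 RPKM in leaf and 13.3 RPKM in flower, above TDC in every tissue. TDC was 0.332 times SLS in root, 0.165 times in leaf and 0.173 times in flower. The highest and the lowest of these ratios differ 2.01-fold, although the TDC level itself spans 83.5-fold. The narrow span restates the short distance between TDC and SLS, which rests on the same values. ASA, in contrast, was 0.127 times SLS in root, 0.355 times in leaf and 0.717 times in flower, a span of 5.65-fold in the other direction.

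The ratios to the strictosidine synthases differed by copy. STR1 was highest in flower, and TDC was 23.0 times STR1 in root, 0.789 times in leaf and 0.0658 times in flower, a span of 350-fold. Against STR2, which was highest in root, TDC was 2.11 times in root, 0.399 times in leaf and 0.131 times in flower. The ASA to STR2 ratio was the steadiest of those formed, at 0.806 in root, 0.860 in leaf and 0.543 in flower, a span of 1.58-fold. It comes from the same values as the short distance between ASA and STR2, and so restates it. SGD, which takes glucose off strictosidine, was highest in leaf at 139.8 RPKM. TDC was 5.66 times SGD in root, 0.104 times in leaf and 0.539 times in flower, and ASA was 2.17 times SGD in root, 0.223 times in leaf and 2.24 times in flower.

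**Figure D4:**
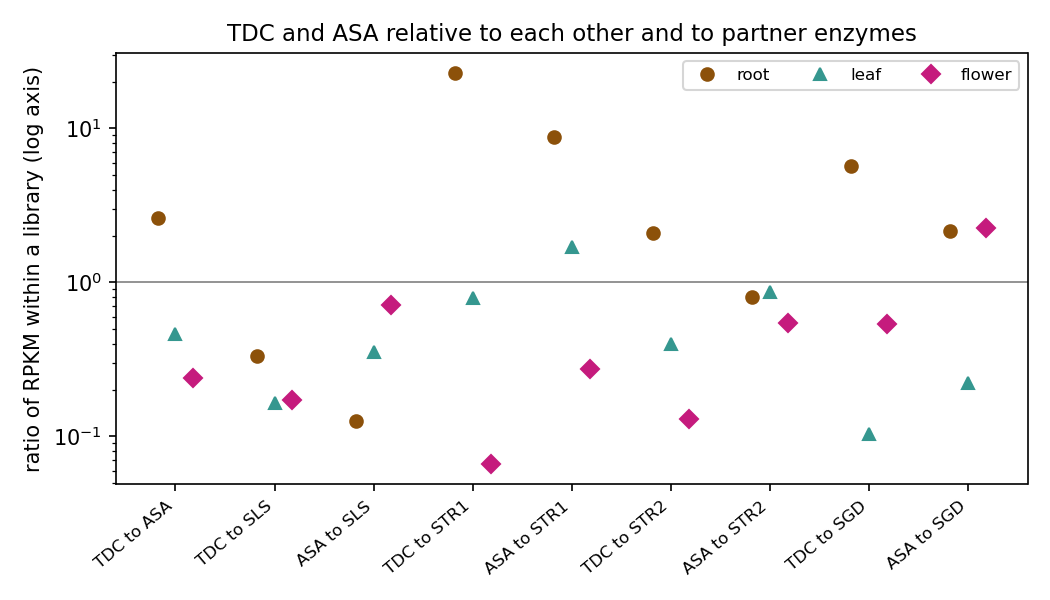
RPKM of TDC or ASA divided by that of ASA, SLS, STR1, STR2 or SGD within the same library, on a log axis, for root (circles), leaf (triangles) and flower (diamonds); the line marks equal levels. TDC to SLS stays between 0.165 and 0.332 and ASA to STR2 between 0.543 and 0.860, while TDC to STR1 runs from 23.0 in root to 0.0658 in flower.

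Placed among the 19 named pathway transcripts, TDC ranked 4 in root, behind SLS, CPR (214 RPKM) and GPPS (205 RPKM). It ranked 14 in leaf and 15 in flower. ASA held a middle place throughout, at rank 7 in root, 10 in leaf and 11 in flower. In leaf both indole transcripts stood below HDR at 206 RPKM, SGD, SLS, IS at 65.9 RPKM and D4H at 63.2 RPKM.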

How the data were processed

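The authors filtered Illumina reads, removed duplicates, mapped them with CLC Genomics Workbench to their own transcript assembly (at most 2 mismatches), and turned unique reads into RPKM; their own differential expression used a test on read counts. The deposited column is headed as a base mean. It was taken as RPKM because of its 2 decimals and its sums of 452743 to 471970, far below what normalized read counts of such libraries would reach; the header and the unit were not reconciled further. Duplicate removal can lower abundant transcripts, and unique mapping leaves out reads shared with near-identical copies, so levels may be understated. With 1 library per tissue the authors' count test was not repeated. Log2 ratios of (RPKM + 1) were called at 2-fold over all transcripts that reached 10 RPKM in either tissue; the code was tested on simulated data. Named were both enzymes, the 17 further transcripts with a name in the sources, actin, and for each enzyme the 2 transcripts nearest over log2(RPKM + 1). Members, lists, the stepwise pattern and alternatives (pseudocounts 0.1 and 10, other minimums and folds, 4 scalings) were chosen with earlier results of these data known. None of the identifiers was found in the reference gene table (0 of 59220), and coordinates are therefore not given. Python 3.11.15, numpy 2.4.6, pandas 2.3.3 and matplotlib 3.10.9 were used.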

Additional observations from a re-analysis of the deposited data

How the results depend on the processing

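Apart from the actin scaling, 29 of 30 alternative values of TDC and ASA kept their direction and their side of 2-fold; the exception was TDC in leaf against flower with a pseudocount of 10 (0.9953). ASA in root against leaf came closest to the line among the others, between 1.01 and 1.69. Scaling to a common upper quartile moved every root against leaf log2 ratio by 0.50, and the median ratio moved it by 0.35, before the pseudocount. The same summed RPKM moved it by -0.06. With TDC at 3.63 in root against leaf, such shifts could not change its side of 2-fold. In root against flower, TDC ran from 4.03 to 6.32 over these alternatives. Equal actin, with actin at 1.17 RPKM in leaf, moved root against leaf by -5.92 and leaf against flower by 5.56, before the pseudocount. Root against leaf then turned to -2.17 for TDC and -4.61 for ASA, and leaf against flower stood at 6.93 and 6.84. Why actin was low in leaf was not tested. The numbers of transcripts called depend on the rule by construction. Root against leaf gave 6828, and 18061 with no minimum, 1978 at 50 RPKM and 4003 at 4-fold. Root against flower gave 5162, then 14995, 1581 and 2723, and leaf against flower 5219, then 10488, 1637 and 2613. The stepwise pattern held 123 transcripts, but 185 with a pseudocount of 0.1, 16 with 10, 43 with equal actin, 43 at 50 RPKM and 7 at 4-fold. The TDC to ASA ratio in flower was 0.63 with a pseudocount of 10, above the 0.594 of leaf. The medians of the 17 pathway transcripts shrank with that pseudocount, to -0.70 in root against leaf, 0.58 in root against flower and 0.30 in leaf against flower, and with equal actin they were -6.50, 0.82 and 5.84. No paired analysis was possible because each tissue has 1 library, and for the same reason no library could be left out.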
